A study of Homo sapiens with 12 samples.

Results

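MYC, its dimer partner MAX and the proteins that compete with MYC for MAX were followed as RNA in 2 prostate cancer cell lines in which the level of the splice variant ARv7 had been changed. The 10 genes were taken by symbol from the 19973 genes of the expression table: MYC, MYCN, MYCL, MAX, MXD1, MXI1, MXD3, MXD4, MNT and MGA. All 10 were in the table, and 9 of them had enough counts to be tested in each comparison. The untested gene was MYCN, with 3 read counts in total over the 12 libraries.

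MYC is a transcription factor that binds DNA only as a pair with MAX, at E-box sites in the promoters of many genes of ribosome production, metabolism and growth. The MXD proteins and MNT also pair with MAX, bind the same sites and bring in the SIN3 corepressor, so the network is usually described as a competition for one partner. MGA pairs with MAX too and works within a Polycomb complex named PRC1.6. In prostate cancer, MYC gain is a frequent event.

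The C4-2 line, a castration-resistant derivative of LNCaP, carried either a control lentivirus (C4-2 control) or a lentivirus for ARv7 overexpression (C4-2 ARv7). The 22Rv-1 line, which makes ARv7 of its own, carried a control hairpin virus (22Rv-1 shcontrol) or a hairpin virus for ARv7 depletion (22Rv-1 shARv7). All 4 groups were thus infected with lentivirus, all were grown in medium with 10% fetal bovine serum, and per the series' design text the changed lines came from puromycin selection. Each group had 3 libraries from dishes plated in triplicate, so p-values measure the spread between dishes of 1 selected population. Total read counts ran from 12318529 to 14672948 per library, and libraries of a group differed by more than counting noise. The C4-2 control replicate 3 stood furthest from its group, where chi-square over its degrees of freedom came to 13 and 7.15 against the other two. The pairs without it gave 2.12 to 4.77.

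All 9 prostate luminal markers were detected in every group above 1 FPKM, a level per gene length and per library total. The summed FPKM of 11 stromal, endothelial and immune markers was at most 11.8 in any library.

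Promoter sequences of the network were taken from RefSeq (GRCh38.p14) for 9 members, as 14 windows of 250 bases before a gene start. MYC had no window in this set, so its promoter was not searched, while MYCN was among the 9. The windows were searched on both strands for the E-box CACGTG, the site that MYC-MAX and MXD-MAX pairs bind. They were also searched for a part of the androgen response element, the site that the androgen receptor binds. The E-box was found for 2 of these 9 genes, MXD4 and MNT, against 7.73% of all 27305 genes and 6.34% of all 35116 windows. The androgen response motif was found for 1 of the 9, MXI1, against 14.82% of all genes and 12.39% of all windows. Both E-box matches are shown because they lie before genes whose products themselves bind E-boxes with MAX. The capitals mark the E-box, and each stretch is written 5′ to 3′ on the gene's strand, the minus strand.

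MXD4, chr4:2262312-2262359: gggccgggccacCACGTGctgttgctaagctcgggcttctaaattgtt

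MNT, chr17:2401218-2401283: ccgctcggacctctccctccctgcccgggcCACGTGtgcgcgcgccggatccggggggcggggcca

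Counted from the RefSeq start of the window, the E-box lies 238 to 233 bases before MXD4 and 193 to 188 bases before MNT. GENCODE release 29 puts the start of either gene nearer to its E-box. These matches describe letters only. Binding was not measured.

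Across the network, 5 of the 9 tested members changed in C4-2 with ARv7: MYC, MXD3 and MNT rose, and MAX and MXI1 fell. With a Benjamini-Hochberg adjusted p under 0.05 in edgeR's quasi-likelihood test, 59.1% of all 12783 genes tested changed in this comparison, 29.6% higher and 29.5% lower. Without the C4-2 control replicate 3, the same 5 members passed in edgeR, with log2 changes of 0.44 for MYC, 1.59 for MXD3, 0.81 for MNT, −0.46 for MAX and −0.50 for MXI1, and MXD4 passed as well. In 22Rv-1 with the ARv7 hairpin, 4 of the 9 members changed: MYC and MXD4 rose, and MXD1 and MXD3 fell. The background there was 48% of 13459 genes, 23.9% higher and 24.1% lower. The members' counts are near these shares, so the number of changed members is not a result about the network, and the account below is about which members changed and by how much. RNA was read from whole dishes, in which a change in the make-up of the cells and a change in RNA per cell cannot be told apart.

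**Figure D1:**
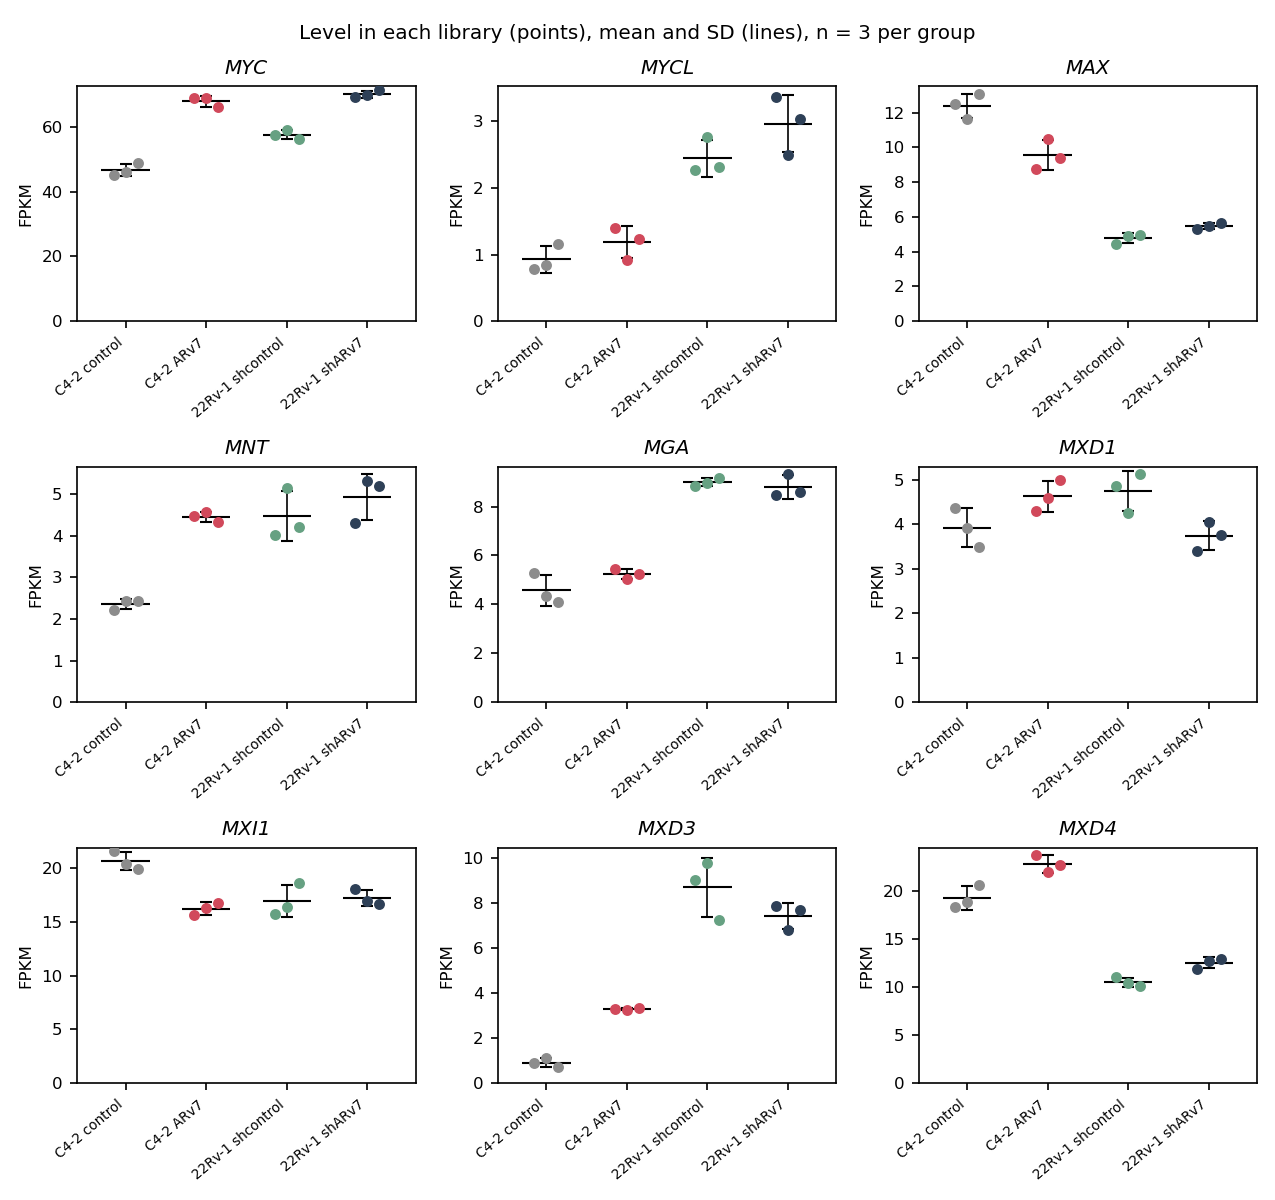
FPKM of the 9 tested network genes in each library (points), with the mean and SD of 3 libraries per group (lines), each panel on its own axis from 0. MYC is higher in both manipulated groups than in the control of the same line (67.98 against 46.74 in C4-2 and 70.13 against 57.62 in 22Rv-1), and MXD3 is lowest in C4-2 control, at 0.905.

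MYC itself was higher in the changed cells of both lines, although ARv7 was raised in one and lowered in the other. In CPM, that is read counts per library total with TMM factors set within a line, it stood at 214, 221 and 242.5 in C4-2 control and at 300.5, 301 and 288 in C4-2 ARv7. In 22Rv-1 the values were 268, 275.5 and 262 in shcontrol and 313, 315 and 321 in shARv7. In neither line did the groups overlap. The rise was 1.31-fold in C4-2 (log2 change 0.39 ± 0.06 SE, edgeR adjusted p = 1.39e-05) and 1.18-fold in 22Rv-1 (log2 change 0.24 ± 0.05 SE, edgeR adjusted p = 1.59e-05).

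In FPKM, MYC was the highest member in all 4 groups and made up 41.8%, 50.2%, 48.3% and 52.6% of the summed FPKM of the 10 genes in C4-2 control, C4-2 ARv7, 22Rv-1 shcontrol and 22Rv-1 shARv7. The order of its level was C4-2 control (46.74 ± 1.87 FPKM, SD, n = 3), 22Rv-1 shcontrol (57.62 ± 1.34), C4-2 ARv7 (67.98 ± 1.65) and 22Rv-1 shARv7 (70.13 ± 1.12). On this scale neighbours did not overlap. The highest C4-2 ARv7 library, at 68.94, lay closer to the lowest 22Rv-1 shARv7 library, at 69.14, than the SD of either group. With TMM factors over all 12 libraries this upper pair turned and overlapped, at 298 to 314 CPM in C4-2 ARv7 and 302 to 309 in 22Rv-1 shARv7.

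MYCL, a relative of MYC with a more restricted pattern of tissues, was a minor member and passed the test in neither line. Its CPM were 4.11, 4.48 and 6.37 in C4-2 control and 6.76, 4.44 and 5.94 in C4-2 ARv7, which overlapped. They were 11.7, 14.3 and 11.9 in 22Rv-1 shcontrol and 16.8, 12.5 and 15.1 in 22Rv-1 shARv7, which overlapped too. The log2 changes were 0.20 ± 0.22 (SE; edgeR adjusted p = 0.451) and 0.23 ± 0.13 (edgeR adjusted p = 0.131). The latter passed at an adjusted p of 0.0427 when 22Rv-1 shARv7 replicate 2 was left out of the edgeR fit.

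MYCN, the family member tied to neuroendocrine prostate tumours, had no counts in any of the 6 C4-2 libraries. It had 2 counts in one 22Rv-1 shcontrol library and 1 count in one 22Rv-1 shARv7 library. A floor of 3 counts corresponds to 0.204 to 0.244 CPM in these libraries, so no fold is given. Neuroendocrine markers were read beside it: of 8, 4 had no counts in C4-2 control, and in 22Rv-1 NEUROD1, INSM1 and NCAM1 were at or near 0 in both groups. The sum of the 8 ran from 11 to 13.4 FPKM in C4-2 control, 6.35 to 7.85 in C4-2 ARv7, 135 to 150 in 22Rv-1 shcontrol and 85.8 to 89.9 in 22Rv-1 shARv7. ENO2 held most of it. The 4 markers that could be tested between the control cells, CHGA, CHGB, SYP and ENO2, were all higher in 22Rv-1 shcontrol. Of all genes 42.5% were higher there. With the hairpin 3 of these 4 fell (CHGA, SYP and ENO2) and none rose, where 24.1% of all genes fell and 23.9% rose.

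MAX, the obligate partner, fell in C4-2 with ARv7 and did not pass in 22Rv-1. Its CPM were 80.6, 76.0 and 88.5 in C4-2 control and 52.2, 62.6 and 55.9 in C4-2 ARv7, a 1.44-fold lower level with no overlap (log2 change −0.52 ± 0.08 SE, edgeR adjusted p = 1.48e-05). In 22Rv-1 they were 28.4, 31.4 and 31.5 in shcontrol and 32.7, 33.9 and 34.5 in shARv7. All 3 shARv7 libraries lay above all 3 shcontrol libraries, yet the log2 change of 0.15 ± 0.09 (SE) did not pass (edgeR adjusted p = 0.162).

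The RNA ratio of MYC to MAX followed from these levels. Per library, MYC FPKM over MAX FPKM was 3.63, 3.96 and 3.74 in C4-2 control and 7.86, 6.56 and 7.02 in C4-2 ARv7. In 22Rv-1 it was 12.9, 12 and 11.4 in shcontrol and 13.1, 12.7 and 12.7 in shARv7. The C4-2 groups did not overlap, with means of 3.78 ± 0.168 and 7.15 ± 0.659 (SD, n = 3), whereas the 22Rv-1 groups overlapped. No test was run on the ratio, and it concerns RNA, not protein or dimers.

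**Figure D2:**
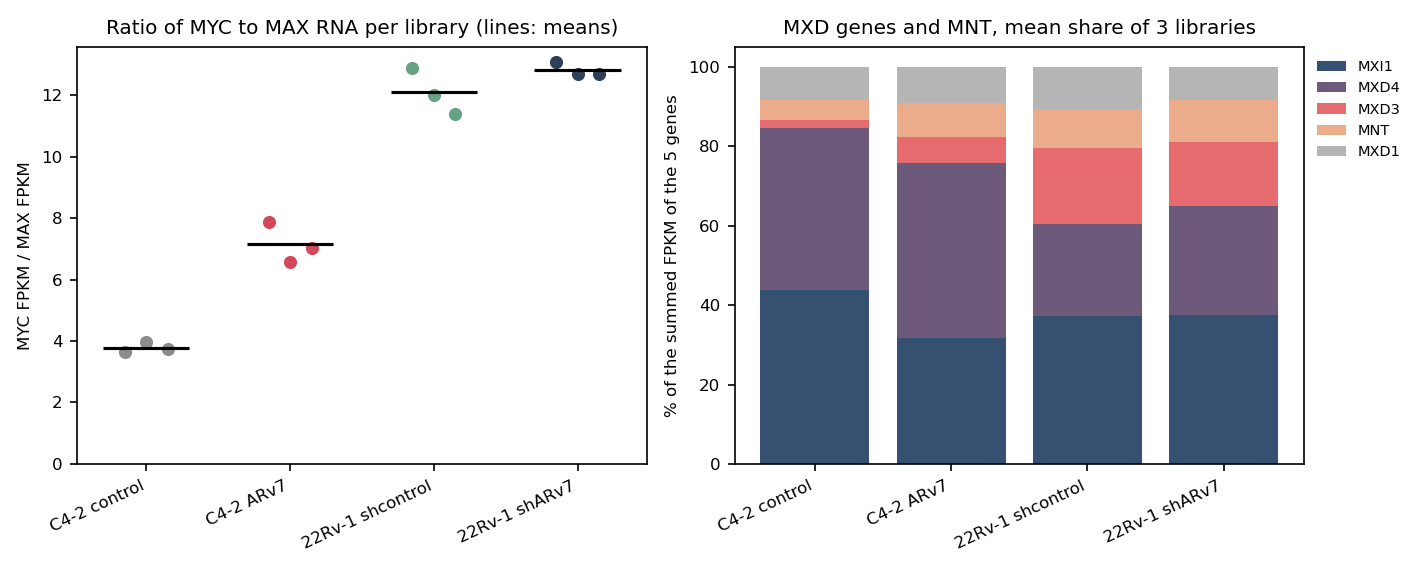
Left, MYC FPKM divided by MAX FPKM in each of 12 libraries, with group means as lines: 3.78 in C4-2 control, 7.15 in C4-2 ARv7, 12.1 in 22Rv-1 shcontrol and 12.8 in 22Rv-1 shARv7. Right, the mean share of each gene in the summed FPKM of MXD1, MXI1, MXD3, MXD4 and MNT, where the MXD3 share is 1.92% in C4-2 control and 19.2% in 22Rv-1 shcontrol.

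Among the antagonists, MXD3 had the largest log2 change in C4-2. MXD3 is the MXD protein linked to the S phase of dividing cells. Its CPM were 4.74, 5.98 and 3.97 in C4-2 control and 16.1, 15.9 and 16.4 in C4-2 ARv7, so the lowest ARv7 library lay well above the highest control. The rise was 3.29-fold (log2 change 1.72 ± 0.16 SE, edgeR adjusted p = 1.4e-08). In 22Rv-1 its CPM were 47.5, 51.4 and 38.1 in shcontrol and 40.1, 34.5 and 38.9 in shARv7. These groups overlapped, and the log2 change was −0.27 ± 0.09 (SE; edgeR adjusted p = 0.00698).

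The fall of MXD3 in 22Rv-1 did not pass in limma on FPKM (log2 change −0.19, adjusted p = 0.101). It also did not pass in edgeR without 22Rv-1 shcontrol replicate 2 (adjusted p = 0.109) or without 22Rv-1 shARv7 replicate 2 (adjusted p = 0.0788). MXD3 exons share 1158 bases with PRELID1 on the opposite strand and 926 bases with RAB24 on the same strand in GENCODE release 29, and no source used here gives the strand setting of the counting. RAB24 went the other way in C4-2 (log2 change −0.65 ± 0.16 SE, edgeR adjusted p = 0.0014), and PRELID1 changed by 0.16 ± 0.08 (edgeR adjusted p = 0.0847).

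Cell division markers moved in the same direction as MXD3 in both lines. All 15 rose in C4-2 with ARv7, where 29.6% of all genes rose, and their summed FPKM went from 77.1 to 80.7 in the controls to 234 to 248. In 22Rv-1 with the hairpin 13 of 15 fell and none rose, where 24.1% of all genes fell and 23.9% rose. The sum there went from 551 to 563 down to 418 to 440. None of the 15 was at 0 in any group, and 8 were under 1 FPKM in C4-2 control. Their part in the changes of the network genes was not tested.

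MNT, the antagonist that is made in most cells whether they divide or not, rose in C4-2 with ARv7. Its CPM were 19.97, 22.1 and 23.0 in the controls and 37.0, 37.8 and 35.8 with ARv7, a 1.7-fold rise with no overlap (log2 change 0.77 ± 0.09 SE, edgeR adjusted p = 6.58e-07). In 22Rv-1 the values 35.6, 45.6 and 37.2 in shcontrol overlapped those of 36.9, 45.5 and 44.3 in shARv7 (log2 change 0.10 ± 0.09 SE, edgeR adjusted p = 0.348). MNT shares 1065 exon bases with an antisense gene, whose reads cannot be told apart here.

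MXI1, another MXD-type antagonist, had the highest mean FPKM of the antagonists in every group but C4-2 ARv7, where MXD4 was higher (22.81 against 16.24). Its CPM were 131.6, 126 and 128 in C4-2 control and 87.7, 91.9 and 94.1 in C4-2 ARv7. Every ARv7 library was lower than every control, with a log2 change of −0.49 ± 0.06 (SE; edgeR adjusted p = 1.24e-06). In 22Rv-1 the values were 94.8, 98.6 and 111.5 in shcontrol and 105, 98.3 and 97.0 in shARv7, and the log2 change of −0.02 ± 0.06 (SE) did not pass (edgeR adjusted p = 0.809).

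MXD1, an antagonist that goes up as many cell types differentiate, fell in 22Rv-1 with the hairpin. Its CPM were 31.4, 27.5 and 33.1 in shcontrol and 21.3, 25.3 and 23.5 in shARv7, with no overlap (log2 change −0.39 ± 0.10 SE, edgeR adjusted p = 0.000404). In C4-2 the control values of 28.6, 25.9 and 24.1 overlapped those with ARv7, 26.0, 27.8 and 30.1 (log2 change 0.09 ± 0.10 SE, edgeR adjusted p = 0.444).

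MXD4 rose in 22Rv-1 with the hairpin. Its CPM were 77.0, 72.8 and 70.4 in shcontrol and 80.9, 86.0 and 87.5 in shARv7, with no overlap (log2 change 0.21 ± 0.06 SE, edgeR adjusted p = 0.00471). In C4-2 the control values were 129.7, 135.5 and 153.5 and those with ARv7 were 155, 144 and 148, and the log2 change of 0.10 ± 0.07 (SE) did not pass (edgeR adjusted p = 0.236). It passed there with total counts in place of TMM factors (0.24, edgeR adjusted p = 0.00314), by limma on FPKM (0.23, adjusted p = 0.00704) and in edgeR without C4-2 control replicate 3 (0.17, adjusted p = 0.00869).

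MGA, the largest MAX partner, differed by less than the test could show in either line. Its CPM were 96.5, 80.0 and 78.3 in C4-2 control against 91.2, 84.6 and 88.1 with ARv7 (log2 change 0.05 ± 0.08 SE, edgeR adjusted p = 0.598). They were 159, 161 and 164 in 22Rv-1 shcontrol against 147.5, 162 and 149 in shARv7 (log2 change −0.08 ± 0.05 SE, edgeR adjusted p = 0.224). The 95% intervals of these changes were −0.10 to 0.20 and −0.18 to 0.02.

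**Figure D3:**
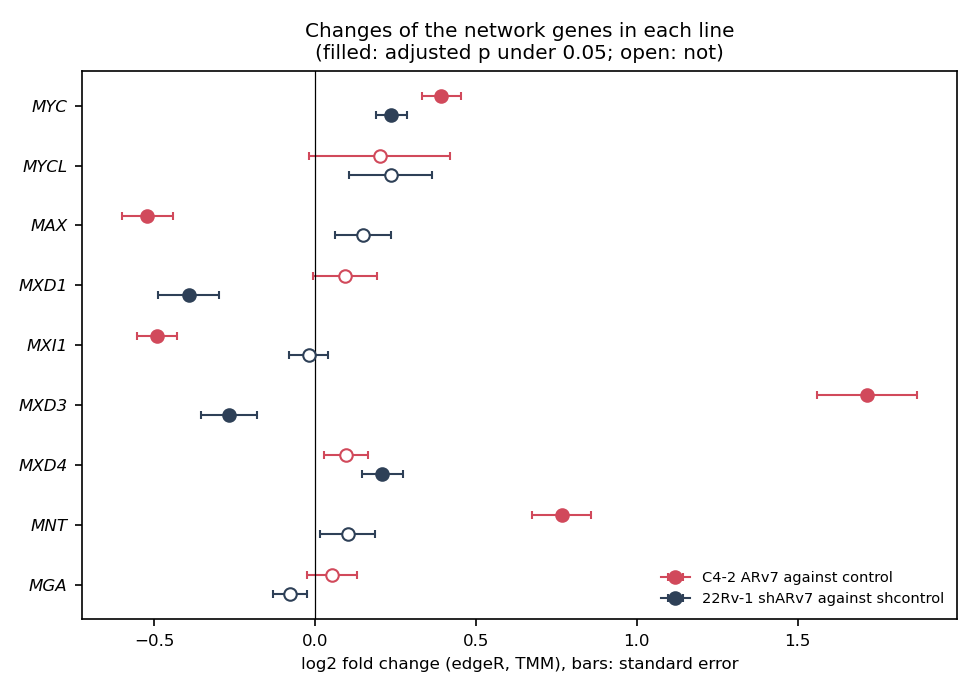
Log2 fold changes of the 9 tested members from edgeR with TMM factors (horizontal axis), with the SE as bars, in C4-2 ARv7 against control and 22Rv-1 shARv7 against shcontrol. Filled points passed an adjusted p under 0.05: MYC lies right of 0 in both, and MXD3 lies at 1.72 in C4-2 and −0.27 in 22Rv-1.

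The summed FPKM of MXD1, MXI1, MXD3, MXD4 and MNT was higher in C4-2 ARv7 than in C4-2 control, with no overlap. In 22Rv-1 the groups overlapped in this sum, while its make-up shifted. FPKM is scaled by library totals, and with total counts the median log2 change of all genes in C4-2 was 0.15. The sum was 47.1 ± 0.321 in C4-2 control and 51.4 ± 0.751 in C4-2 ARv7, and 45.3 ± 0.651 and 45.9 ± 0.361 in 22Rv-1 shcontrol and shARv7 (SD, n = 3). In C4-2 the MXI1 share was 43.8% ± 1.67 in controls and 31.6% ± 1.06 with ARv7, while MXD3 went from 1.92% ± 0.436 to 6.41% ± 0.0213 and MNT from 5.02% ± 0.282 to 8.66% ± 0.349. In 22Rv-1 the MXD4 share went from 23.2% ± 1.26 to 27.3% ± 0.994 and that of MXD1 from 10.5% ± 1.09 to 8.14% ± 0.691. MYC FPKM over this sum was 0.991 ± 0.0372 and 1.32 ± 0.0473 in C4-2 and 1.27 ± 0.0231 and 1.53 ± 0.01 in 22Rv-1.

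Whether the changes differed between the lines was tested in 1 fit of all 12 libraries. The C4-2 change (ARv7 minus control) was taken less the 22Rv-1 change (shcontrol minus shARv7), both read toward more ARv7. This test shares its libraries with the within-line comparisons. Line and kind of manipulation, overexpression in C4-2 and a hairpin in 22Rv-1, cannot be told apart in it. Of the 9 members, 6 differed, 4 upward (MYC, MXD3, MXD4 and MNT) and 2 downward (MAX and MXI1), against a background of 50.7% of 14235 genes, 27.4% higher and 23.3% lower. For MYC the difference was 0.64 ± 0.08 (log2, SE; edgeR adjusted p = 8.09e-09), since its changes toward more ARv7 had opposite signs. For MXD3 it was 1.45 ± 0.18 (edgeR adjusted p = 1.7e-08), with both changes in one direction and the larger in C4-2.

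For MNT the difference between lines was 0.87 ± 0.14 (log2, SE; edgeR adjusted p = 1.72e-06) and for MXI1 −0.51 ± 0.09 (edgeR adjusted p = 1.21e-05), members that passed in C4-2 and not in 22Rv-1. MXD4 differed by 0.31 ± 0.09 (edgeR adjusted p = 0.005). MAX differed by −0.37 ± 0.12 (edgeR adjusted p = 0.00795), which did not pass in limma on FPKM (−0.18, adjusted p = 0.125) or in edgeR on total counts (−0.18, adjusted p = 0.194). MXD1, MYCL and MGA did not pass, with differences of −0.30 (95% interval from the SE −0.57 to −0.02), 0.44 (−0.05 to 0.93) and −0.02 (−0.20 to 0.16).

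Between the control cells, 8 of 9 members differed, where 83.4% of 14235 genes did, 42.5% higher and 40.9% lower in 22Rv-1. The line and the control virus cannot be told apart here, and these libraries are also the controls of the within-line comparisons. MXD3 was 8.66-fold higher in 22Rv-1 shcontrol (log2 3.11 ± 0.13 SE, edgeR adjusted p = 2.5e-22), and MYCL, MGA and MNT were higher by 1.24 ± 0.18, 0.83 ± 0.07 and 0.76 ± 0.10. MAX was 2.87-fold lower (−1.52 ± 0.08, edgeR adjusted p = 2.83e-19), and MXD4 and MXI1 were lower by log2 changes of −1.03 ± 0.07 and −0.44 ± 0.06.

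MYC was higher in 22Rv-1 shcontrol than in C4-2 control by a log2 change of only 0.15 ± 0.05 (SE; edgeR adjusted p = 0.0105). That call was lost in edgeR without C4-2 control replicate 1 (adjusted p = 0.0755), C4-2 control replicate 2 (0.0572) or 22Rv-1 shcontrol replicate 2 (0.0538). MXD1 did not pass (0.13 ± 0.10, edgeR adjusted p = 0.221), but did so by limma on FPKM (adjusted p = 0.0218) and by edgeR on total counts (0.28, adjusted p = 0.0135). Scaling matters for such small values: total counts moved the median log2 change of all genes from 0.01 to 0.15 in C4-2, from 0.06 to 0.25 in the difference between lines and from 0.04 to 0.18 between controls.

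The order of FPKM over the 4 groups differed from member to member. MAX was lowest in 22Rv-1 shcontrol (4.784 ± 0.277 FPKM, SD, n = 3), then 22Rv-1 shARv7 (5.472 ± 0.168), C4-2 ARv7 (9.56 ± 0.877) and C4-2 control (12.39 ± 0.715), with no overlap between neighbours. MXD4 had the same lower pair, 10.5 ± 0.46 and 12.54 ± 0.547, then C4-2 control (19.26 ± 1.21) and C4-2 ARv7 (22.81 ± 0.914), again with no overlap in FPKM. With TMM factors over all 12 libraries its C4-2 groups overlapped, at 133 to 159 and 150 to 162 CPM. MGA fell into a C4-2 pair (4.576 ± 0.634 and 5.241 ± 0.198) and a 22Rv-1 pair (8.799 ± 0.478 and 8.996 ± 0.169), overlapping within each pair. MNT was low in C4-2 control alone, at 2.365 ± 0.122, while the other 3 groups, at 4.452 to 4.931, did not separate. MXD1 ran from 3.738 ± 0.327 to 4.749 ± 0.449, with every neighbour overlapping. With TMM factors over all 12 libraries its lowest group, 22Rv-1 shARv7 at 20.5 to 24.3 CPM, lay below the next, C4-2 control at 24.9 to 29.4.

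MYCL was lowest in C4-2 control and C4-2 ARv7, at 0.932 ± 0.202 and 1.186 ± 0.245 FPKM, which overlapped. The 22Rv-1 groups, at 2.448 ± 0.276 and 2.966 ± 0.433, overlapped each other and lay above both. MXI1 was highest in C4-2 control, at 20.65 ± 0.841, and the other 3 groups, at 16.24 ± 0.582 to 17.24 ± 0.724, overlapped their neighbours. The levels of MXD3 were separate in C4-2 control (0.905 ± 0.20), C4-2 ARv7 (3.295 ± 0.0561) and 22Rv-1 shARv7 (7.455 ± 0.572), and the last of these overlapped 22Rv-1 shcontrol (8.709 ± 1.29).

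Genes whose pattern was most like that of MYC were looked up over the 12 libraries, each line centred on its own mean, among 9896 genes with at least 5 CPM in each line. They were CBY1 (Pearson r 0.987), FKBP10 (0.986), SPCS1 (0.985), ALDH4A1 (0.981) and SUMF2 (0.98). For MXI1 they were CPEB4 (0.977), TARS1 (0.976), BLOC1S6 (0.975), BIRC2 (0.973) and PPP1R21 (0.972). The points share libraries and scaling factors, so these values are descriptions only.

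Genes that MYC is known to induce went both ways in either line. Of 37 ribosome biogenesis genes, 12 rose and 8 fell in C4-2 with ARv7, where 29.6% and 29.5% of all genes did, with a median log2 change of 0.03 where all genes had 0.01. NOP56, a core protein of small nucleolar particles, rose by 0.52 ± 0.06 (log2, SE; edgeR adjusted p = 2.51e-07) and GNL3, the nucleolar GTPase nucleostemin, by 0.45 ± 0.06 (edgeR adjusted p = 8.51e-07). BOP1, a factor of large subunit assembly, fell by 0.44 on the log2 scale (edgeR adjusted p = 4.86e-05). With total counts the split was 18 higher and 2 lower, so the balance of this list depends on the scaling. Of all 12783 genes, 5159 rose and 2523 fell with total counts.

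In 22Rv-1 with the hairpin, 3 of the 37 ribosome biogenesis genes rose and 6 fell, where 23.9% and 24.1% of all genes did. The median was −0.09 against 0.01 for all genes. With total counts 5 rose and 4 fell, where 3803 and 2695 of all 13459 genes did. GNL3 (0.34 ± 0.05, edgeR adjusted p = 7.24e-09) and NPM1 (nucleophosmin, 0.28 ± 0.04, edgeR adjusted p = 1.07e-08) rose. TCOF1, a factor of ribosomal RNA transcription, changed by −0.36 ± 0.06 (edgeR adjusted p = 1.29e-07). Both GNL3 and NPM1 had also risen in C4-2 with ARv7, NPM1 by 0.35 ± 0.06 (edgeR adjusted p = 1.92e-05).

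Of 34 tested metabolism and growth genes induced by MYC, 11 rose and 7 fell in C4-2 with ARv7 (median 0.11), where 29.6% and 29.5% of all genes did. ODC1, the first enzyme of polyamine synthesis, rose by 0.71 ± 0.06 (edgeR adjusted p = 1.33e-09) and HSPD1, a mitochondrial chaperone, by 0.44 ± 0.05 (edgeR adjusted p = 9.34e-07). TERT, the catalytic subunit gene of telomerase, had the largest rise of the list, from 0.265 ± 0.147 to 5.63 ± 0.597 CPM (SD, n = 3; log2 change 4.36 ± 0.37 SE, edgeR adjusted p = 4.43e-09). Its control level lay near the floor of 3 counts, 0.204 to 0.208 CPM in those libraries, so the size of this fold is uncertain. NDUFAF4, an assembly factor of respiratory complex I, changed by −1.11 ± 0.09 (edgeR adjusted p = 4.26e-09) and SHMT2, a mitochondrial serine enzyme, by −0.61 ± 0.07 (edgeR adjusted p = 6.16e-07). With total counts 23 rose and 2 fell, where 5159 and 2523 of all 12783 genes did. In 22Rv-1 with the hairpin 3 rose and 9 fell (median −0.07), where 23.9% and 24.1% of all genes did. Among those that fell were SORD (−0.75 ± 0.06), SLC29A2 (−0.55 ± 0.05) and SHMT2 (−0.38 ± 0.04).

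Of 13 tested genes that MYC is known to repress, 7 rose and 1 fell in C4-2 with ARv7, where 29.6% of all genes rose and 29.5% fell. Their median log2 change was 0.50, against 0.01 for all genes. NDRG1 rose by 1.90 ± 0.06 (edgeR adjusted p = 2.96e-15), and the stress gene GADD45A by 1.11 ± 0.08 (edgeR adjusted p = 8.33e-10). The cell cycle inhibitor CDKN1A was the one that fell, by 0.71 on the log2 scale (edgeR adjusted p = 1.14e-07). In 22Rv-1 with the hairpin 4 of 12 rose and 3 fell (median 0.04), where 23.9% and 24.1% of all genes did. CDKN1A rose by 0.32 ± 0.07, CDKN1B by 0.49 ± 0.05 and GADD45G by 1.07 ± 0.10, and NDRG1 changed by −0.60 ± 0.07. The difference between lines passed for NDRG1 (1.31 ± 0.09, edgeR adjusted p = 9.07e-15) and CDKN1A (−0.39 ± 0.11, edgeR adjusted p = 0.00278).

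**Figure D4:**
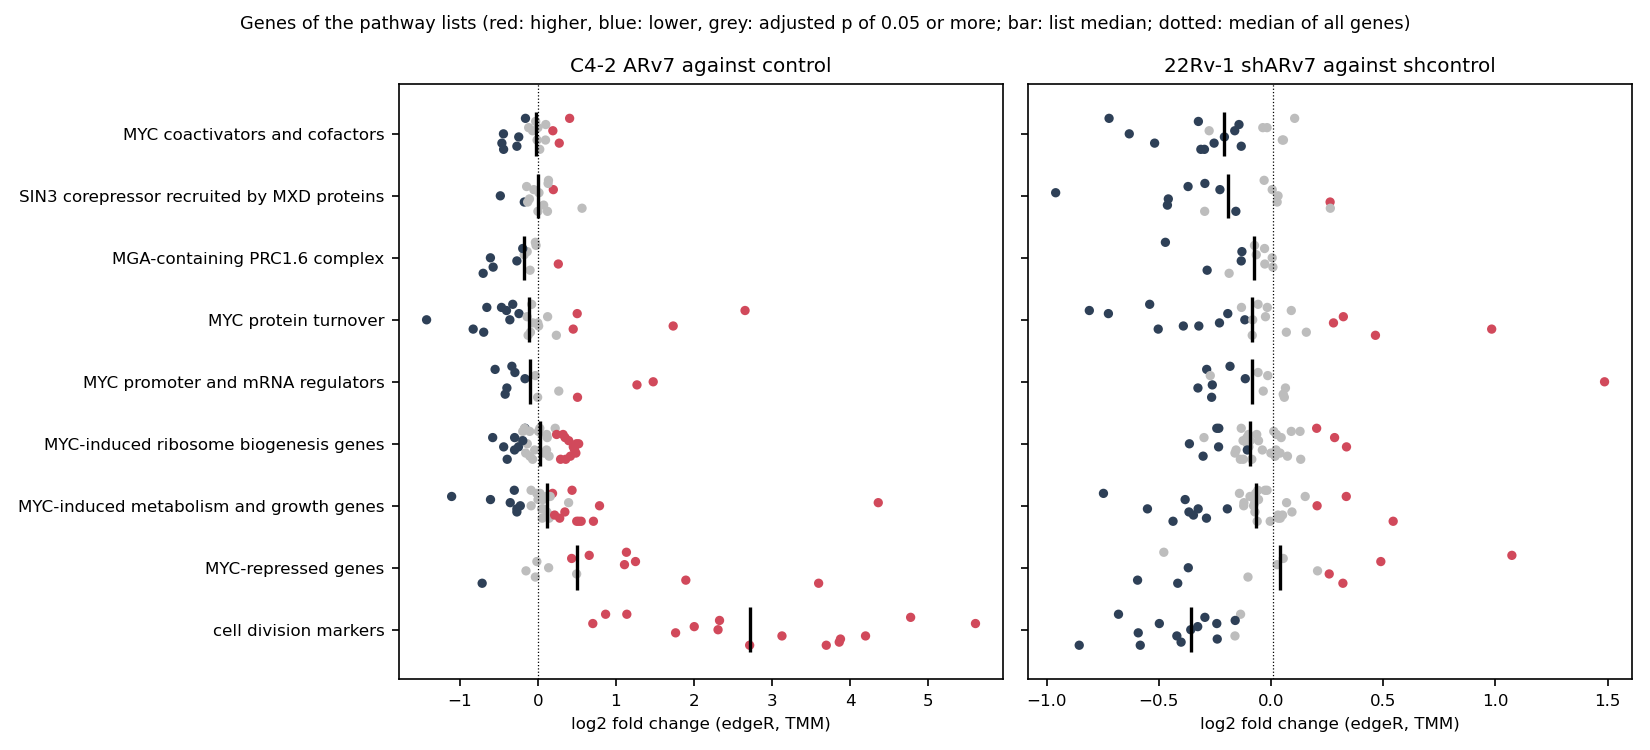
Log2 fold changes (horizontal axis, each panel on its own scale) of the genes of 9 lists in C4-2 ARv7 against control and 22Rv-1 shARv7 against shcontrol, with list medians as bars and the median of all genes dotted. The cell division markers have a median of 2.71 in C4-2 and −0.36 in 22Rv-1, while the MYC-induced lists stay near the median of all genes.

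Of 17 cofactors that MYC recruits, 11 fell and none rose in 22Rv-1 with the hairpin, where 24.1% of all genes fell and 23.9% rose. The median was −0.21 against 0.01 for all genes. With total counts 7 fell and 1 rose, where 2695 and 3803 of all 13459 genes did. HCFC1, a chromatin-bound cofactor of MYC, changed by −0.72 ± 0.05 (log2, SE; edgeR adjusted p = 3.07e-20), the acetyltransferase gene CREBBP by −0.63 ± 0.06 (edgeR adjusted p = 3.97e-16) and the SWI/SNF subunit gene SMARCB1 by −0.52 ± 0.06 (edgeR adjusted p = 3.66e-12). In C4-2 with ARv7 3 rose and 6 fell (median −0.03), beside 29.6% and 29.5% of all genes. Total counts turned this split to 6 and 3, where 5159 of all 12783 genes rose and 2523 fell. HCFC1 rose there by 0.41 ± 0.07, and CREBBP changed by −0.44 ± 0.07.

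The SIN3 complex, which MXD proteins and MNT bring to DNA, showed 7 of 14 genes lower and 1 higher in 22Rv-1 with the hairpin (median −0.19), beside the same 24.1% and 23.9% of all genes. NCOR1, a corepressor scaffold, had the largest fall of the list, with 473 ± 12.8 CPM in shcontrol and 243 ± 16.1 in shARv7 (SD, n = 3; log2 change −0.96 ± 0.05 SE, edgeR adjusted p = 8.91e-30). HDAC1, a histone deacetylase, was the one that rose (0.26 ± 0.05, edgeR adjusted p = 1.29e-06). In C4-2 with ARv7 1 of 14 rose and 2 fell, beside 29.6% and 29.5% of all genes. With total counts 7 rose and 1 fell there, beside 5159 and 2523 of all 12783 genes. Of the 11 partners of MGA in PRC1.6, 1 rose and 5 fell in C4-2 (RYBP −0.61 ± 0.06, E2F6 −0.70 ± 0.08, RING1 −0.57 ± 0.07) and none rose and 4 fell in 22Rv-1 (L3MBTL2 −0.47 ± 0.10). These totals are no higher than the 59.1% and 48% of all genes, but most were falls, where 29.5% and 24.1% of all genes fell. With total counts 3 fell in C4-2 and 2 in 22Rv-1, where 2523 of 12783 and 2695 of 13459 genes fell.

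Factors of MYC protein turnover gave 4 of 22 higher and 9 lower in each line. The totals lie near the shares of all genes that changed (59.1% in C4-2 and 48% in 22Rv-1). Falls outnumbered rises here, while of all genes 29.6% rose and 29.5% fell in C4-2, and 23.9% and 24.1% in 22Rv-1. With total counts the split was 7 higher and 7 lower in C4-2 and 6 higher and 7 lower in 22Rv-1. Over all genes that scaling gave 5159 higher and 2523 lower of 12783 in C4-2, and 3803 and 2695 of 13459 in 22Rv-1. CIP2A, which protects MYC protein from a phosphatase, rose from 2.94 ± 0.356 to 18.6 ± 2.47 CPM in C4-2 (log2 change 2.66 ± 0.17 SE, edgeR adjusted p = 5.36e-11). It fell from 44.7 ± 4.31 to 25.5 ± 1.91 CPM in 22Rv-1 (−0.81 ± 0.09, edgeR adjusted p = 1.68e-12). AURKA, a mitotic kinase gene, changed by 1.73 ± 0.17 and −0.39 ± 0.10. PPP2CA, the catalytic subunit gene of phosphatase PP2A, changed by −0.73 ± 0.05 in 22Rv-1 (edgeR adjusted p = 1.46e-22).

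Regulators of the MYC promoter and mRNA gave 3 higher and 6 lower of 12 tested in C4-2 with ARv7. In 22Rv-1 with the hairpin 1 was higher and 6 lower of 14. Of all genes 59.1% changed in C4-2 (29.6% higher, 29.5% lower) and 48% in 22Rv-1 (23.9% higher, 24.1% lower). IGF2BP3, an RNA-binding protein that stabilises MYC mRNA, went from 9.01 ± 0.548 to 25.1 ± 2.37 CPM in C4-2 (log2 change 1.48 ± 0.12 SE, edgeR adjusted p = 3.31e-09). The 6 that fell in C4-2 fell in 22Rv-1 too: PUF60, CNBP, HNRNPK, CTCF, ELAVL1 and PCBP2. How many of all genes fell in both lines was not counted, so this overlap is not a result about the list. With total counts 4 rose and 5 fell in C4-2, and 2 rose and 5 fell in 22Rv-1. Over all genes that scaling gave 5159 higher and 2523 lower of 12783 in C4-2, and 3803 and 2695 of 13459 in 22Rv-1. CTCF, an insulator protein, changed by −0.55 ± 0.06 and −0.29 ± 0.06. The single riser in 22Rv-1 was IGF2BP1, at 1.63 ± 0.35 and 4.55 ± 0.588 CPM.

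The parallel branch of the network, in which MLX takes the place of MAX, was read from 5 genes. In C4-2 with ARv7 2 rose and 2 fell, and in 22Rv-1 with the hairpin 3 rose and none fell, where 59.1% and 48% of all genes changed. TXNIP, a glucose-responsive target of MLX pairs, went from 13.9 ± 0.976 to 270.0 ± 9.94 CPM in C4-2 with ARv7 (log2 change 4.28 ± 0.08 SE, edgeR adjusted p = 4.12e-19) and from 11.2 ± 1.66 to 99.3 ± 5.46 CPM in 22Rv-1 with the hairpin (3.15 ± 0.09, edgeR adjusted p = 1.25e-45). Its relative ARRDC4 rose in both lines as well (1.38 ± 0.16 and 0.78 ± 0.13). MLX changed by −0.82 ± 0.07 in C4-2 (edgeR adjusted p = 6.85e-09). Like MYC, TXNIP and ARRDC4 rose in the changed cells of both lines, and their differences between lines, read toward more ARv7, were 7.44 ± 0.12 and 2.17 ± 0.21.

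The table places MYC (ENSG00000136997) on chromosome 8 from 127735434 to 127742951 and MAX (ENSG00000125952) on chromosome 14 from 65006174 to 65102695. MXD3 (ENSG00000213347) lies on chromosome 5 from 177301461 to 177312757, MNT (ENSG00000070444) on chromosome 17 from 2384073 to 2401104, and MXI1 (ENSG00000119950) on chromosome 10 from 110207605 to 110287365. MXD1 (ENSG00000059728) lies on chromosome 2 from 69897688 to 69942945 and MXD4 (ENSG00000123933) on chromosome 4 from 2247432 to 2262109. On GRCh38, both ends equal those of GENCODE release 29 for MAX, MXD1, MXI1 and MXD3. One end differs for MYC (by 1517 bases) and MXD4 (by 185), and both ends differ for MNT (by 13 and 14). Exons of 9 of the 10 members overlap another gene there, so reads of such stretches cannot be told apart.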

How the data were processed

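RNA sequencing of 12 libraries, 3 in each of 4 groups, was read from 1 deposited table. Per the labels' protocols, reads were trimmed with Cutadapt 2.7, and the submitters' processing notes name hg18, although the table's gene positions match GRCh38. No source used here gives the aligner, the counter or the strand setting. The authors deposited raw read counts per gene, with no normalization, and FPKM values, which equal count over gene length and library total to within a relative 1.81e-07. One of 19974 lines was a broken annotation with no gene identifier and was left out. Counts were tested with edgeR 4.0.16 (R 4.3.3; filterByExpr, TMM, glmQLFit, glmQLFTest, Benjamini-Hochberg over all genes tested), within each line, and over all 12 libraries for the difference between lines and for the control cells. SE is the log2 change over the square root of F. The alternatives included total counts, DESeq2 1.42.0, edgeR with size factors from DESeq2, no filter, a minimum mean of 5 CPM, the replicate number as a block, other sets of libraries, each library left out, and limma 3.58.1 on log2(FPKM + 1) with a mean FPKM of at least 1, whose folds understate low genes. The code was tested on simulated data. The members and the lists were chosen with earlier results of these data known. All members are named, and from a list up to 3 genes with the smallest adjusted p in each direction and line, and those against the majority. Intervals come from the SE and so hold the spread between dishes. The floor of 3 counts covers counting error only. Some genes taken by these rules are not reported here.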

Additional observations from a re-analysis of the deposited data

Results flagged for a closer look

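For 6 of the 9 tested members the change toward more ARv7 differed between the lines in the fit of all 12 libraries. Of all 14235 genes tested, 50.7% differed, 27.4% higher and 23.3% lower. Line and kind of manipulation, overexpression or hairpin, cannot be told apart in this fit. The log2 differences, C4-2 less 22Rv-1, were 0.636 for MYC (edgeR adjusted p = 8.09e-09), 1.453 for MXD3 (1.7e-08), 0.873 for MNT (1.72e-06), 0.311 for MXD4 (0.005), −0.506 for MXI1 (1.21e-05) and −0.367 for MAX (0.00795). MYC was higher in all 3 changed libraries than in all 3 controls in either line.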

How the results depend on the processing

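Of the 9 tested members' log2 changes over 4 comparisons, 582 values under alternatives stayed on their side of the threshold, 13 newly passed and 8 no longer passed. No called value changed sign. Members called ranged, leaving out 1 library at a time, from 5 to 6 in C4-2, 3 to 4 in 22Rv-1, 6 to 8 in the difference between lines and 7 to 8 between controls. Genes called lower in C4-2 numbered 2237 in limma on FPKM, against 3776. In the difference between lines they numbered 2069 with total counts and 2097 in limma, against 3314. The share of calls that were higher went from 50% to 67.2% with total counts in C4-2, from 54% to 72% in the difference and from 49.8% to 58.5% in 22Rv-1; the cause was not tested. MXD1 passed in the difference between lines with DESeq2 (adjusted p = 0.0491), with its size factors in edgeR (0.0426), and without C4-2 control replicate 3 (0.0367) or 22Rv-1 shcontrol replicate 2 (0.0402). MYCL passed there with total counts (0.63, edgeR adjusted p = 0.0337), in limma (0.38, 0.043) and without C4-2 control replicate 3 (0.66, edgeR adjusted p = 0.026).

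With the replicate number as a block, the same numbers of members were called, 5, 4, 6 and 8, and genes called were 3679 higher and 3631 lower in C4-2 and 3090 higher and 3113 lower in 22Rv-1. Of the PRC1.6 genes, 2 were called lower in 22Rv-1 with this block, against 4. Deviations of same-numbered libraries correlated at −0.18, 0.017 and −0.082 in C4-2 and −0.099, 0.018 and −0.127 in 22Rv-1. These values show no pairing by number, but 3 libraries per group are too few to exclude one. Depth limits MYCN and leaves MYCL with 58 to 223 counts per library.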
